A study of Mus musculus with 2 samples.

Results

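The genes described here are those of the mouse major histocompatibility complex (MHC) and of antigen processing. They were taken as every gene name of a non-control array spot that starts with H2-, together with B2m, Tap1, Tap2, Tapbp, Psmb8, Psmb9, Psmb10, Cd74 and Ciita. This gave 50 of the 29608 gene names on the array, covered by 70 probes in 97 spots. The array files place 44 of these genes on chromosome 17. The study measured gene expression in 661W, an immortalised mouse photoreceptor cell line. One sample was grown for 3 days in choline-deficient DMEM/F12 and the other for 3 days in choline-sufficient DMEM/F12. The labels put choline at 8.98 g/L, which is high for a culture medium, and the unit could not be checked here. Both media held serum and antibiotics by the growth protocol. The RNA of each condition went to 1 single-colour array, and the design text mentions pooling over 4 dishes without saying whether these were per condition. With no replicates, none of the differences could be checked against the spread between samples, and p-values are not possible.

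MHC class I molecules show peptides from inside the cell to cytotoxic T cells. The peptides are cut by the proteasome, carried into the endoplasmic reticulum by the TAP transporter, and loaded with the help of tapasin onto a heavy chain that is paired with beta-2 microglobulin. Interferons raise most genes of this route, among them those of 3 proteasome subunits that replace the constitutive ones to form the immunoproteasome. MHC class II molecules show peptides from the endosomal route to helper T cells and are normally kept to professional antigen-presenting cells, where the coactivator CIITA switches their genes on. Neurons and photoreceptors are known for low MHC expression.

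Levels are given as relative signal, the background-subtracted processed signal of a probe divided by the 75th percentile of its array. A difference is a log2 value and is positive where the choline-deficient array was higher. The error after ± is the scanner software's estimate for both arrays combined. For bright probes it is almost wholly a fixed 10% for each array, so most members carry the same value near 0.20. It is not a spread measured between spots, and it leaves out how much cultures vary. A probe counted as measured when its signal was well above background on both arrays by the software's own call. Of the 50 genes 34 had at least 1 such probe, 5 were above background on 1 array only and 11 on neither.

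Over the whole array, 70.7% of non-control spots were well above background on the choline-deficient array and 68.5% on the choline-sufficient array, with 0 saturated spots on each. Of 12 cone photoreceptor markers 6 were measured on both arrays, at relative signals between 0.00351 and 0.227, and their sum was 0.444 on the choline-deficient and 0.291 on the choline-sufficient array. The short-wave cone opsin gene Opn1sw, Cngb3, Crx and Rcvrn did not reach that level on either array, so the photoreceptor label rests on a part of the marker list. Of 14 markers of leukocytes and antigen-presenting cells 12 were measured, all at or below 0.164. Their summed relative signal was 0.489 on the choline-deficient and 0.487 on the choline-sufficient array, and Itgax and Tyrobp were above background on neither. Of 7 Muller glia markers 4 were measured, with a sum of 2.61 on the choline-deficient and 1.24 on the choline-sufficient array, and Kcnj10 and Sox2 were above background on neither. The part of these marker differences in the results below was not tested.

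Related class I genes are near-copies of each other, and some of their 60-base probes share long stretches. The probe pairs with the longest runs in common are shown. Probes were compared with each other and not with the transcripts of other members. Probes without shared bases may therefore still read more than 1 gene. Capitals mark the longest stretch that the 2 probes of a pair share, 54 bases in the H2-Q6 and H2-Q8 pair and 29 bases in the H2-K1 and H2-T23 pair. Sequences and positions are those of the array files, on mm9, 5′ to 3′.
H2-Q6 probe, chr17:35565253-35565312, + strand: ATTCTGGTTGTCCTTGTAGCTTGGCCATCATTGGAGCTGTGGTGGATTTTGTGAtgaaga
H2-Q8 probe, chr17:35565247-35565306, + strand: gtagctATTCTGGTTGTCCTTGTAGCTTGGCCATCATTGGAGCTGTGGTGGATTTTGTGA
H2-K1 probe, chr17:34133984-34134043, - strand: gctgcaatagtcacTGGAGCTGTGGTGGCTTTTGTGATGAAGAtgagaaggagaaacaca
H2-T23 probe, chr17:36167338-36167574, - strand: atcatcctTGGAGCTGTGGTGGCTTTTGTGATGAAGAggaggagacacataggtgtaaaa
The H2-Q6 and H2-Q8 probes lie at nearly the same place, and the accessions listed for the H2-Q8 probe include an H2-Q6 transcript. Values of these 2 genes are therefore close to 1 measurement. The H2-T23 probe covers 237 bases of the genome with 60 bases of sequence, and 4 further member probes (H2-DMa, H2-M2, H2-Ob and H2-Q2) are spread in the same way. The H2-Q7 probe also lists H2-Q9, the H2-T9 probe H2-T22, and an H2-M10.3 probe H2-M10.5. In all, 10 probe pairs of different members shared 15 bases or more, among them a probe of H2-K2 and that of H2-Q7 with 28 bases. Another H2-Q6 probe lists a transcript of Nlrp1a, a gene outside this family.

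The 3 immunoproteasome genes and the tapasin gene were each about 2-fold higher on the choline-deficient array. Of the other genes of class I assembly Tap2 was higher and Tap1 and B2m were not. Of the 34 measured members 6 (17.6%) lay at or above 1.5-fold higher, against 14.8% of all 19816 genes measured on the array. On the lower side 8 members (23.5%) reached 1.5-fold, against 14.1% of all genes measured, and 7 of the 8 encode class I heavy chains or their pseudogene copies. At 2-fold, 3 members were higher (Psmb9, Psmb10 and Tapbp), against 7.67% of all genes, and 2 were lower (Cd74 and H2-M11), against 3.88%. The share of higher genes was thus near that of the array as a whole. The members' median was -0.15, beside -0.10 for all measured genes. In bulk RNA a gene switched in few cells and a smaller change in every cell cannot be told apart.

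**Figure D1:**
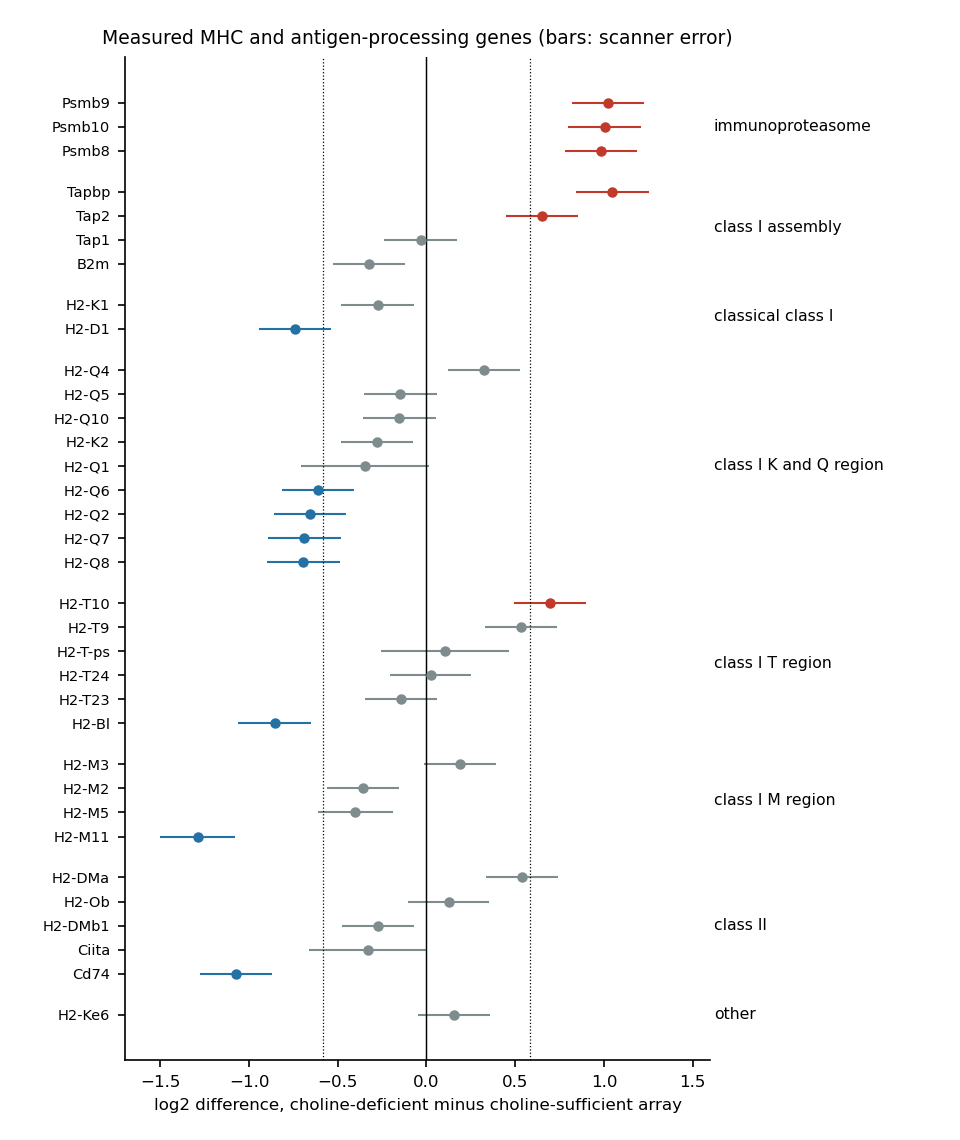
Log2 difference (choline-deficient minus choline-sufficient array) of the 34 measured members, grouped by role, with bars for the scanner error and dotted lines at 1.5-fold. Red points lie past the upper line (higher on the choline-deficient array), blue points past the lower one and grey points between them. The 3 immunoproteasome genes sit between 0.98 and 1.02.

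Psmb8, whose product takes the place of the constitutive catalytic subunit Psmb5, had a relative signal of 2.47 on the choline-deficient array and 1.25 on the choline-sufficient array. Its difference was 0.98 ± 0.20, or 1.98-fold (NM_010724, mm9 chromosome 17, 34337771 to 34337830). Psmb9, which replaces Psmb6, had 0.917 on the choline-deficient and 0.452 on the choline-sufficient array, a difference of 1.02 ± 0.20 (NM_013585, chromosome 17, 34319174 to 34319233). All these values lie on the same side of 1.5-fold. Psmb10, which replaces Psmb7, had 11.4 on the choline-deficient and 5.66 on the choline-sufficient array, or 2.01-fold higher with a log2 error of 0.20 (NM_013640, chromosome 8, 108459677 to 108459736). The 3 log2 differences were closer to each other than the error of any of them, although Psmb10 lies outside the MHC on another chromosome. A second Psmb9 probe, for another transcript, was well above background on neither array, and with that probe included the Psmb9 difference was 0.09.

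The constitutive subunits that the 3 genes replace were not higher. Psmb5 had 25.6 on the choline-deficient and 35.9 on the choline-sufficient array, a difference of -0.49 ± 0.20. Psmb7 had 7.48 on the choline-deficient and 10.9 on the choline-sufficient array, a difference of -0.54 ± 0.20. Psmb6 differed by -0.14 ± 0.20, and that sign turned with quantile normalization, cyclic loess and spike-in scaling. The gap between a gene and its counterpart does not depend on how the arrays are scaled by a constant. It was 1.47 ± 0.29 for Psmb8 over Psmb5, 1.16 ± 0.29 for Psmb9 over Psmb6 and 1.55 ± 0.29 for Psmb10 over Psmb7. Each immunoproteasome gene was therefore higher relative to its counterpart by between 2.24-fold and 2.92-fold.

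Among the genes of class I assembly, Tapbp, which encodes tapasin, had 4.76 on the choline-deficient and 2.30 on the choline-sufficient array. The difference was 1.05 ± 0.20, or 2.07-fold (NM_001025313, chromosome 17, 34065963 to 34066022). Tap2, a subunit gene of the peptide transporter, had 8.42 on the choline-deficient and 5.36 on the choline-sufficient array, a difference of 0.65 ± 0.20 that was 0.53 with median scaling. Both were higher. The gene of the partner subunit, Tap1, was not. The relative signals of its 10 spots ran from 0.176 over a median of 0.191 to 0.216 on the choline-deficient array, and from 0.182 over 0.194 to 0.211 on the choline-sufficient array. The spots of the 2 arrays overlapped throughout, with a mean difference of -0.03 and an SD between spots of 0.06. With spike-in scaling Tap1 stood at 0.24. B2m, the light chain gene, had 39.6 on the choline-deficient and 49.5 on the choline-sufficient array, a difference of -0.32 ± 0.20.

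Psmb9 and Tap1 are neighbours that start 226 bases apart and run in opposite directions, so they share one stretch of upstream sequence. That stretch and the windows before 5 other members are shown because their genes differed in different directions. Each window is the 250 bases before the annotated start, from RefSeq on GRCm38.p6, written along the gene's own strand, and so is sequence of the reference strain and not of 661W. Capitals mark letters of any motif searched.
Psmb9 upstream, chr17:34187331-34187580, - strand: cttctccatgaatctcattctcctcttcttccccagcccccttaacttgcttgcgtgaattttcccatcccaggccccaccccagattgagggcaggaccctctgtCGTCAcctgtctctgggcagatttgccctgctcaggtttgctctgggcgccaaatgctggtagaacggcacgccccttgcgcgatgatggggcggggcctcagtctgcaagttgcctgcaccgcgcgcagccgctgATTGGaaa
Psmb8 upstream, chr17:34197945-34198194, + strand: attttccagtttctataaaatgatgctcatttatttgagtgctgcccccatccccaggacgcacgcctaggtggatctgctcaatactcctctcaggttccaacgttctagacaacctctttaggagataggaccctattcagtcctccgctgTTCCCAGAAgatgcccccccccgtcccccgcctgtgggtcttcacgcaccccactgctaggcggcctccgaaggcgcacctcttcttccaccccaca
Tapbp upstream, chr17:33919228-33919477, + strand: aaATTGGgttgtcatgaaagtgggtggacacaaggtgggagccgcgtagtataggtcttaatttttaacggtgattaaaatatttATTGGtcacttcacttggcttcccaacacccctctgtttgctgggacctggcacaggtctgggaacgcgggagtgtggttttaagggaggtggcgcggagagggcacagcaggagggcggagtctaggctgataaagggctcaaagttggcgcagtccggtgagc
B2m upstream, chr2:122147437-122147686, + strand: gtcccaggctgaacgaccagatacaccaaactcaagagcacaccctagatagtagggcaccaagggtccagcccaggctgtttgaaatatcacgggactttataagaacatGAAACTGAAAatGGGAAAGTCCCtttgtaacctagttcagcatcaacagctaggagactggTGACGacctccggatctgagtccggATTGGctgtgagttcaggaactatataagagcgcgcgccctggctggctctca
H2-D1 upstream, chr17:35262844-35263093, + strand: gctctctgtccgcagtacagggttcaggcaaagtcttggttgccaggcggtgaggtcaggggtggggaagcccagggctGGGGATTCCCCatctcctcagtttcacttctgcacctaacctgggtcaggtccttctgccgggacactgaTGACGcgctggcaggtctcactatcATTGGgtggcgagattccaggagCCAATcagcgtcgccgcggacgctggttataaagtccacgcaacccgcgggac
H2-K1 upstream, chr17:34000334-34000583, - strand: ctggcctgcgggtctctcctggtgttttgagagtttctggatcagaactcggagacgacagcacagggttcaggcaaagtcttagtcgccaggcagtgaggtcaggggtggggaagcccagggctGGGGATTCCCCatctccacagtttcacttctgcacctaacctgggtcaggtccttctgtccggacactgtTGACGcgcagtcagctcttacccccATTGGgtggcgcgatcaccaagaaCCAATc
Of the 50 members 36 had an entry in the promoter table, and 14 had none (Cd74, Ciita, H2-Ab1, H2-Bl, H2-Ea, H2-K2, H2-Q1, H2-Q5, H2-Q8, H2-T10, H2-T18, H2-T24, H2-T9 and Tap2). The motifs were searched on both strands as exact letters, so variants of an element are not counted and no match does not mean no element. The Y box letters CCAAT were found before 31 of the 36 members and in 33.8% of all 32851 windows. The X2 box core TGACG was found before 13 members and in 17.8% of windows, and its palindrome TGACGTCA, which contains the core, before H2-Aa only and in 1.55% of windows. The NF-kB letters (GGGA, 4 free bases and CC) were found before 11 members and in 17.6% of windows, and overlapping matches on the 2 strands are all marked. The interferon-stimulated response element core (GAAA, 2 free bases and GAAA) was found before B2m and H2-T23 and in 2.98% of windows, and the gamma-activated site TTCNNNGAA before Psmb8, H2-DMb2, H2-M3 and H2-M11 and in 7.02%. H2-D1 and H2-K1 both held NF-kB, X2 and Y box letters in that order. After the NF-kB letters both also held a near match to the interferon-stimulated response element core, which the exact search did not count. Near matches were not searched for in the other windows, so how common they are is not known. Their windows matched at 169 of 204 positions (82.8%) when aligned without gaps. The Psmb10 window held none of the 6 motifs.

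**Figure D2:**
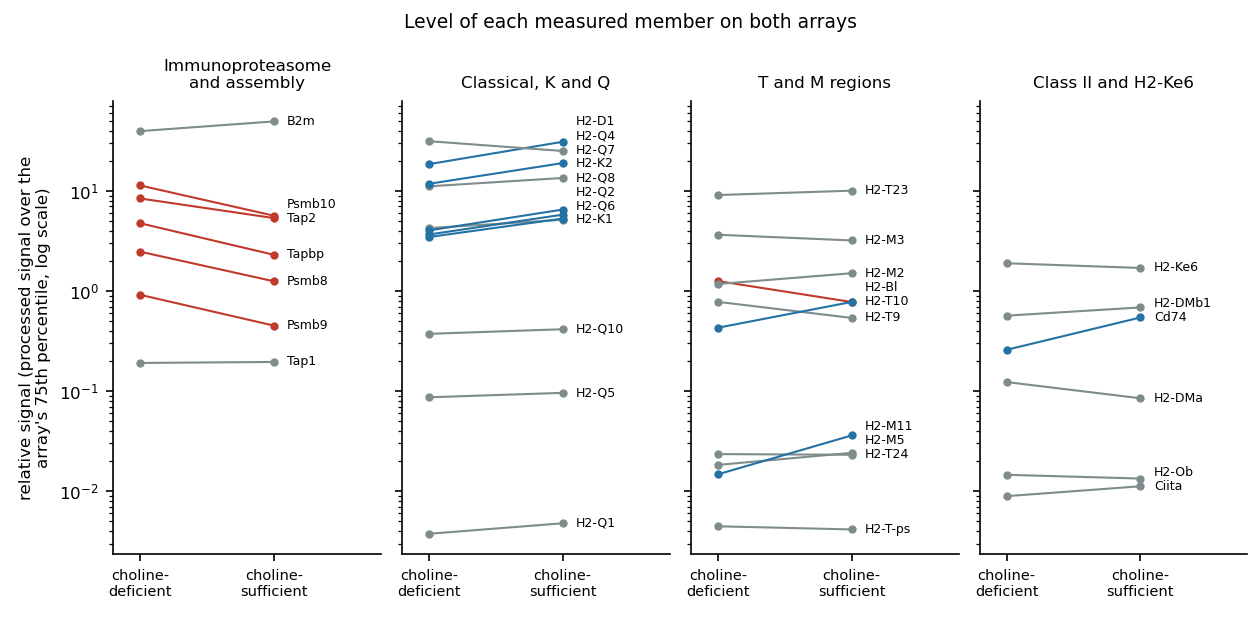
Relative signal of each measured member on the choline-deficient (left) and choline-sufficient (right) array, on a log scale, in 4 groups of roles. Colours are those of the plot of differences. Red lines fall to the right for Psmb8, Psmb9, Psmb10, Tap2, Tapbp and H2-T10, and B2m and Tap1 are near level. Levels of different genes rest on different probes and are not to be set against each other.

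The heavy chain genes held both directions. Of 30 class I heavy chain genes and copies 21 were measured, with a median of -0.28, beside -0.10 for all genes. Past 1.5-fold were 7 lower, where the array as a whole had 14.1%, and 1 higher (H2-T10), where the array had 14.8%. These counts rested on the scaling, with 2 lower and 1 higher after quantile normalization, 2 and 3 after cyclic loess, and 1 and 3 with spike-in scaling, where the median was -0.01. H2-D1, a classical heavy chain gene, had 18.5 on the choline-deficient and 31.0 on the choline-sufficient array (NM_010380, chromosome 17, 35403886 to 35403945). Its difference was -0.74 ± 0.20, or 1.67-fold lower, and it moved to -0.50 with quantile normalization, -0.48 with cyclic loess and -0.47 with spike-in scaling. H2-K1, the other classical gene, had 3 probes. The brightest, printed as 10 spots, ran from 43.5 over a median of 45.5 to 48.1 on the choline-deficient array, and from 43.9 over 45.0 to 47.2 on the choline-sufficient array. These spots overlapped, with a mean difference of 0.02 and an SD between spots of 0.05. The other 2 probes of H2-K1 differed by -0.31 ± 0.20 and -0.54 ± 0.20, and the mean over the 3 probes was -0.28 ± 0.20. The probe with 29 bases in common with H2-T23 is the first of these, and the last is unmapped on mm9.

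**Figure D3:**
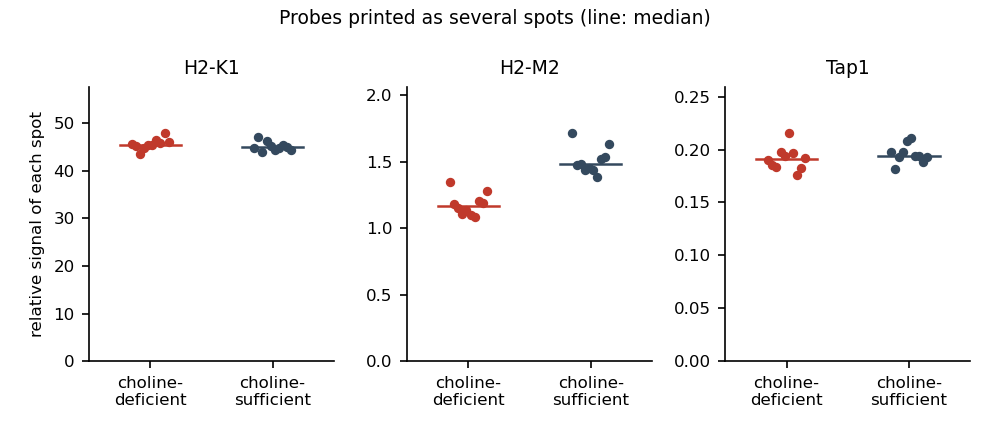
Relative signal of each spot for the 3 members whose probe was printed 10 times, with the choline-deficient array on the left and the choline-sufficient array on the right of each panel and a line at the median. Spots of H2-K1 and of Tap1 overlap between the arrays, and the spots of H2-M2 on the choline-deficient array lie between 1.09 and 1.35, against 1.38 to 1.72 on the choline-sufficient array.

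In the K and Q region, 4 of 9 measured members were lower by at least 1.5-fold and 0 higher. Over the array 14.1% of genes were lower and 14.8% higher. Of the 4, H2-Q6 and H2-Q8 are close to 1 measurement, as given above. H2-Q7, which encodes the Qa-2 antigen, had 11.8 on the choline-deficient and 19.0 on the choline-sufficient array, a difference of -0.69 ± 0.20. H2-Q8 had 4.03 on the choline-deficient and 6.52 on the choline-sufficient array, a difference of -0.69 ± 0.20, and the H2-Q6 probe that overlaps it also differed by -0.69. The second H2-Q6 probe differed by -0.53 and the mean for H2-Q6 was -0.61 ± 0.20. H2-Q2 had 3.67 on the choline-deficient and 5.80 on the choline-sufficient array, a difference of -0.66 ± 0.20 with its 2 probes at -0.76 and -0.55. All 4 kept a negative sign under each scaling tried, but each fell short of 1.5-fold with quantile normalization, cyclic loess and spike-in scaling, as H2-D1 did. H2-Q4 had 31.4 on the choline-deficient and 25.1 on the choline-sufficient array, a difference of 0.32 ± 0.20, the only positive one of the 9. H2-K2, a transcribed pseudogene in RefSeq, differed by -0.28 ± 0.20, H2-Q1, at a dim 0.00376 on the choline-deficient and 0.00479 on the choline-sufficient array, by -0.35 ± 0.36, H2-Q10 by -0.15 ± 0.20 and the pseudogene H2-Q5 by -0.15 ± 0.20. The signs of H2-Q10 and H2-Q5 turned with spike-in scaling, and that of H2-Q10 also with no filter on dim probes.

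The T region held both directions. H2-T10, the relative of a ligand of gamma-delta T cells and a transcribed pseudogene in the reference annotation, had 1.26 on the choline-deficient and 0.777 on the choline-sufficient array. Its difference was 0.69 ± 0.20, and 0.58 with median scaling. H2-T9, whose probe also lists transcripts of H2-T22, another such ligand, had 0.780 on the choline-deficient and 0.539 on the choline-sufficient array, a difference of 0.53 ± 0.20. H2-Bl, read by 1 probe that is unmapped on mm9, had 0.430 on the choline-deficient and 0.778 on the choline-sufficient array, a difference of -0.86 ± 0.20. H2-T23 encodes Qa-1, the ligand of inhibitory receptors on natural killer (NK) cells. It had 9.10 on the choline-deficient and 10.07 on the choline-sufficient array, and its difference of -0.14 ± 0.20 turned positive with quantile normalization, cyclic loess and spike-in scaling. H2-T24 and H2-T-ps were dim and differed by 0.02 ± 0.23 and 0.10 ± 0.36, and both turned negative with median scaling and normexp, H2-T24 also with quantile normalization and with its brightest probe. H2-T3 and H2-T18, of the thymus leukaemia antigen family, were above background on neither array.

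Of the 4 M region members measured on both arrays, 1 passed 1.5-fold, and it was dim. H2-M11 had 0.0148 on the choline-deficient and 0.0361 on the choline-sufficient array, a difference of -1.29 ± 0.21 that was -0.70 after normexp. H2-M3, which presents formylated bacterial peptides, had 3.65 on the choline-deficient and 3.20 on the choline-sufficient array, a difference of 0.19 ± 0.20. H2-M2 was printed as 10 spots. They ran from 1.09 over a median of 1.17 to 1.35 on the choline-deficient array, and from 1.38 over 1.48 to 1.72 on the choline-sufficient array. Every spot read lower under choline deficiency, with a mean difference of -0.36 and an SD between spots of 0.02, which is below 1.5-fold. A second H2-M2 probe was above background on the choline-deficient array only, with 0.00584 on the choline-deficient and 0.00244 on the choline-sufficient array. That is 1.76-fold higher by the measure given below, with a log2 error of 0.63, so the 2 probes of this gene disagree in direction. H2-M5 differed by -0.40 ± 0.21. For a probe above background on 1 array, the fold is taken over the lowest signal well above background on the dim array. Where the dim probe's own signal is higher, that signal is used. Such a fold is not a strict bound, because probes that missed the call could read above that lowest signal. On the choline-deficient array a second H2-Q10 probe did so, at 0.00295 against 0.00258. H2-M10.2 was above background on the choline-sufficient array only, with 0.000541 on the choline-deficient and 0.0106 on the choline-sufficient array. By this measure it was 4.10-fold lower on the choline-deficient array. H2-M10.3 was likewise 2.64-fold lower by 1 probe, with 0.00196 on the choline-deficient and 0.00683 on the choline-sufficient array. That probe also lists H2-M10.5, and a second H2-M10.3 probe was above background on neither array. The log2 errors of the H2-M10.2 probe and of this H2-M10.3 probe were 1.45 and 0.60. H2-M1, H2-M9, H2-M10.1, H2-M10.4 and H2-M10.6 were above background on neither array. Members of the M1 and M10 families are known from sensory neurons of the vomeronasal organ.

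Of 12 class II genes 5 were measured on both arrays, 3 were above background on 1 array and 4 on neither. H2-Aa, which encodes the alpha chain of the I-A molecule, and the I-E chain genes H2-Ea and H2-Eb1 were well above background on neither array, as was H2-DMb2. H2-Ea is a transcribed pseudogene in RefSeq. H2-Ab1, the I-A beta chain gene, was above background on the choline-deficient array only, at 0.00339, against 0.00337 on the choline-sufficient array. The 2 signals differed by 1.01-fold. H2-Eb2 was above background on the choline-sufficient array only, with 0.00136 on the choline-deficient and 0.00438 on the choline-sufficient array. By the measure used for the M region it was 1.70-fold lower on the choline-deficient array, with a log2 error of 0.80. H2-Oa, a chain of the modulator H2-O, was above background on the choline-deficient array only. It had 0.00500 on the choline-deficient and 0.000680 on the choline-sufficient array, 1.5-fold higher by the same measure, with a log2 error of 1.45. These 3 genes lie close to the lowest signal that the software separates from background, 0.00258 on the choline-deficient and 0.00333 on the choline-sufficient array.

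Of the 5 measured class II genes Cd74 was the only one past 1.5-fold. Cd74 encodes the invariant chain that guides class II molecules to the endosome and blocks their groove. It had 0.259 on the choline-deficient and 0.544 on the choline-sufficient array, a difference of -1.07 ± 0.20, or 2.10-fold lower, and it stayed at least 1.5-fold lower under all 8 alternatives. H2-DMa, a chain of the peptide exchange factor H2-DM, had 0.123 on the choline-deficient and 0.0849 on the choline-sufficient array, a difference of 0.54 ± 0.20 that passed 1.5-fold with spike-in scaling. Its partner chain gene H2-DMb1 had 0.568 on the choline-deficient and 0.686 on the choline-sufficient array, a difference of -0.27 ± 0.20. H2-Ob differed by 0.12 ± 0.23, and by -0.15 after normexp. Ciita was dim, with 0.00893 on the choline-deficient and 0.0112 on the choline-sufficient array. Its mean difference of -0.33 ± 0.33 joins 3 probes between -0.59 and 0.04, the last of them the brightest. The leukocyte marker sum given above differed little between the arrays, and the markers Itgax and Tyrobp were at background on both.

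H2-Ke6 carries an H2 name because of its place in the MHC but encodes a hydroxysteroid dehydrogenase, also called Hsd17b8. It had 1.90 on the choline-deficient and 1.70 on the choline-sufficient array, a difference of 0.16 ± 0.20.

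The scaling of the arrays decides part of these counts. Scaling to the median of each array moved the median of all genes by -0.12, and scaling to 5 bright spike-in probes moved it by 0.27. Higher genes made up 51.1% of all genes at least 1.5-fold apart in the main setting, 37.1% with median scaling and 80.2% with spike-in scaling. Among the members, 6 were higher and 8 lower in the main setting, 4 and 8 with median scaling, 9 and 2 with spike-in scaling, 6 and 3 with quantile normalization, and 8 and 3 with cyclic loess. Psmb8, Psmb10, Tapbp, Cd74 and H2-M11 stayed past 1.5-fold in the same direction under all 8 alternatives. H2-D1, H2-Q2, H2-Q6, H2-Q7, H2-Q8 and H2-Bl stayed lower in sign under all 8, with values down to -0.34 for H2-Q6 with spike-in scaling.

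**Figure D4:**
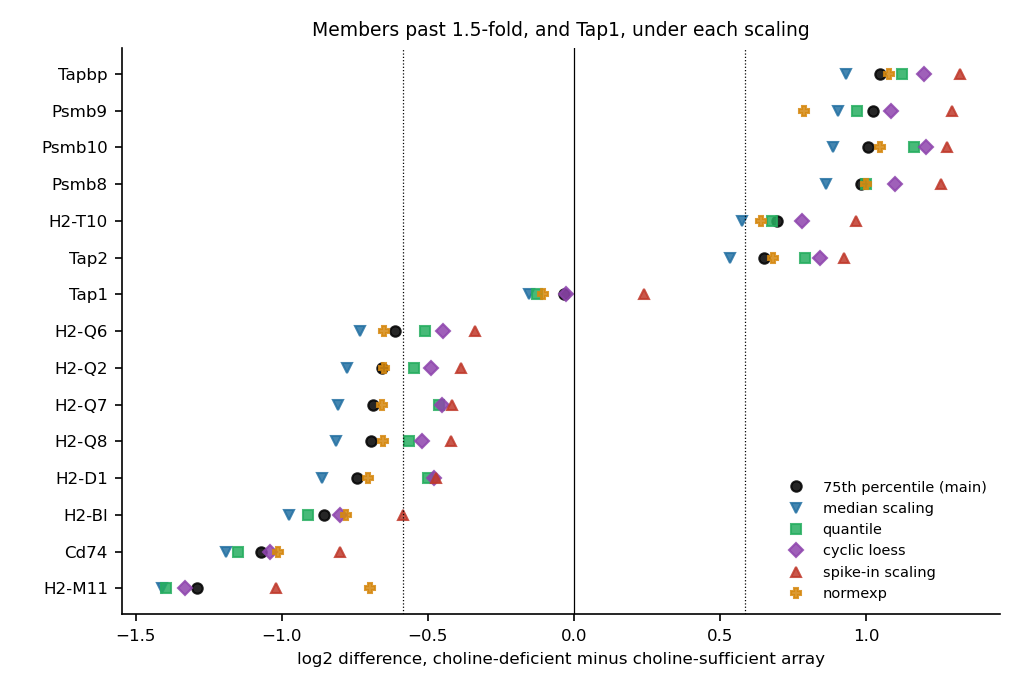
Log2 difference (choline-deficient minus choline-sufficient array) of the 14 members past 1.5-fold and of Tap1, with a symbol for the main setting, each other scaling and normexp background correction. Dotted lines mark 1.5-fold. Psmb8, Psmb9, Psmb10 and Tapbp stay above the upper line in all settings plotted, and the lower heavy chains cross the lower line with quantile normalization, cyclic loess and spike-in scaling, apart from H2-M11 and H2-Bl, of which H2-Bl crosses it with spike-in scaling.

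The other genes of antigen presentation were taken from lists of the same pathway. Of 17 further proteasome and proteasome activator genes 1 was at least 1.5-fold higher and 3 lower. Over the array the shares were 14.8% higher and 14.1% lower, so the lower count was near that of the array. The list median was -0.40, and 16 of the 17 had a negative sign, or 12 with quantile normalization, cyclic loess or spike-in scaling. The higher gene was Psme1, which encodes an interferon-induced activator subunit. It had 7.38 on the choline-deficient and 3.93 on the choline-sufficient array, a difference of 0.91 ± 0.20. Psme2, written in the same list, was not matched by name on the array and has no value here. Psme3, the gene of the nuclear relative of that activator, had 2.91 on the choline-deficient and 4.93 on the choline-sufficient array, a difference of -0.76 ± 0.20. The structural subunit genes Psmb1 and Psmb3 were lower, with differences of -0.85 ± 0.20 and -0.59 ± 0.20. None of these 3 reached 1.5-fold with spike-in scaling. Beside the same array shares, 0 of 10 genes in the list of the loading complex and peptide trimming were higher and 1 lower. That was the chaperone gene Hspa5, at -0.72 ± 0.20, which came to -0.41 at its smallest over the alternatives. The median of that list was -0.20, and 0.07 with spike-in and 0.02 with cyclic loess. The lectin chaperone genes Calr and Canx differed by -0.31 ± 0.20 and -0.26 ± 0.20, the peptidase gene Tpp2 by -0.36 ± 0.20, and the translocon gene Sec61a1 by -0.33 ± 0.20. Canx turned positive with spike-in scaling.

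**Figure D5:**
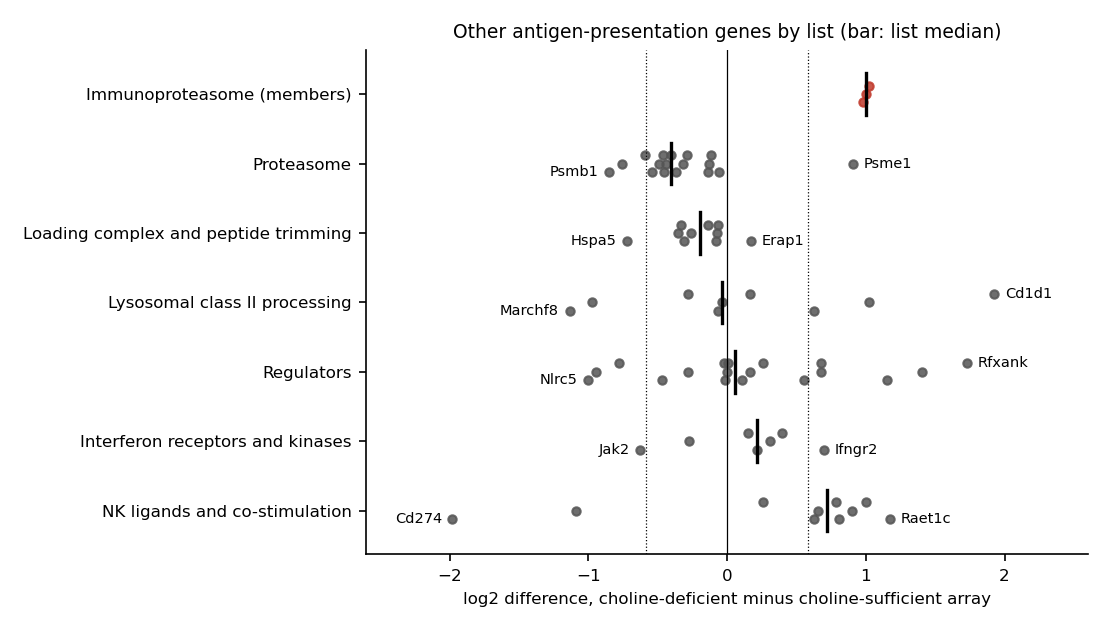
Log2 difference (choline-deficient minus choline-sufficient array) of each measured gene of 6 lists of other antigen-presentation genes, with the 3 immunoproteasome genes in the top row for comparison. Black bars are list medians and dotted lines mark 1.5-fold. In the proteasome row Psme1 stands apart at 0.91 from a median of -0.40, and in the row of NK ligands 7 of 10 genes lie at or above 1.5-fold.

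Of the 10 measured genes of NK ligands and co-stimulation 7 were at least 1.5-fold higher and 2 lower, with a median of 0.72, against 14.8% higher and 14.1% lower over the array. The 7 are all genes of ligands for the activating receptor NKG2D, and the other genes measured are co-stimulatory or inhibitory molecules. Raet1c had 0.602 on the choline-deficient and 0.267 on the choline-sufficient array, a difference of 1.17 ± 0.20. Ulbp1 had 0.289 on the choline-deficient and 0.144 on the choline-sufficient array, with its 2 probes at 0.93 and 1.08. Raet1a was higher by 0.90 ± 0.20. Raet1b, Raet1e, H60a and H60b made up the rest of the 7, between 0.63 and 0.81. The Raet1 genes are near-copies, so their probes may read each other's transcripts, H60a turned negative after normexp, and with median scaling, quantile normalization or normexp H60a and H60b were below 1.5-fold. In the opposite direction Cd274, which encodes the inhibitory ligand PD-L1, had 0.143 on the choline-deficient and 0.565 on the choline-sufficient array, a difference of -1.98 ± 0.20. Cd40 differed by -1.09 ± 0.23 at a dim 0.00909 on the choline-deficient and 0.0194 on the choline-sufficient array, and by -0.46 after normexp.

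Regulators of the MHC genes also went both ways, with 5 of 18 past 1.5-fold upward, 3 downward and a list median of 0.06, where the array as a whole had 14.8% upward and 14.1% downward. The downward share was thus near that of the array, and the counts were 3 and 4 with median scaling. Rfxank, a subunit gene of the factor that binds the X box of MHC promoters, had 0.698 on the choline-deficient and 0.210 on the choline-sufficient array, a difference of 1.73 ± 0.20. Irf1, a transcription factor gene induced by interferon, had 9.80 on the choline-deficient and 4.41 on the choline-sufficient array, a difference of 1.15 ± 0.20. Socs1, the gene of an inhibitor of interferon signalling, was higher by 1.40 ± 0.20. Nlrc5, the coactivator gene of class I promoters, had 0.0974 on the choline-deficient and 0.195 on the choline-sufficient array, 2.01-fold lower, with its 2 probes at -1.13 and -0.88. Nfya, a subunit gene of the factor that binds the Y box, differed by -0.95 ± 0.20. Of 7 genes of interferon receptors and their kinases, Ifngr2 differed by 0.70 ± 0.20 and Jak2 by -0.63 ± 0.20, with Ifnar1 at 0.39 ± 0.20, Tyk2 at 0.31 ± 0.20 and Ifnar2 at -0.27 ± 0.20. The call of Ifngr2 was lost with median scaling and that of Jak2 with quantile normalization, cyclic loess and spike-in scaling. Of the interferon genes themselves, Ifng, Ifnb1 and Ifna4 were above background on neither array, and Ifna1 and Ifna2 were dim, at -0.25 ± 0.22 and 0.27 ± 0.32.

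In the list for lysosomal processing and class I-like molecules 3 of 9 genes passed 1.5-fold upward and 2 downward, with a list median of -0.04. Over the array 14.8% of genes passed it upward and 14.1% downward. Cd1d1, which presents lipids to NKT cells, had 0.0579 on the choline-deficient and 0.0152 on the choline-sufficient array, a difference of 1.93 ± 0.25 that was 0.67 at its smallest over the alternatives. Mr1, which presents vitamin metabolites, differed by 1.03 ± 0.20. Both are class I-like genes outside the MHC. Marchf8, the gene of a ubiquitin ligase of membrane proteins, differed by -1.14 ± 0.20, the protease gene Ctsl by -0.97 ± 0.20 and Marchf1, the gene of the ligase that removes class II molecules from the surface, by 0.62 ± 0.20. Marchf1 was below 1.5-fold with median scaling, normexp and no filter on dim probes. Ctss, the gene of the protease that trims the invariant chain in antigen-presenting cells, was above background on neither array.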

How the data were processed

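Total RNA of 1 choline-deficient and 1 choline-sufficient 661W sample was amplified, labelled with Cy3 and hybridised, per the labels' protocols. The submitters' processing notes name Agilent Feature Extraction 12.1.1.1 for the scans. Their deposited intensity values have the background subtracted and spatial trends removed, and were not normalized between the arrays, per the file headers. The values deposited separately are a ratio of that signal to 1 number per array (choline-deficient 1609, choline-sufficient 1280). These numbers equal the 75th percentiles, so scale and direction follow the scanner files and genes are not centred. The medians of this ratio over non-control spots were 0.0409 and 0.0376 on the choline-deficient and choline-sufficient array.

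In R 4.3.3 (limma 3.58.1 and the data.table package, version 1.17.8) and Python 3.11.15 (numpy 2.4.6, pandas 2.3.3), processed signals were divided by the 75th percentile of the array's non-control spots and set to log2. Spots marked as outliers (92 on the choline-deficient and 86 on the choline-sufficient array) were dropped, repeat spots were averaged, and a gene took the mean of its measured probes (26461 of 39426 probes). Spot errors were combined over both arrays and not reduced for the number of spots or probes. Members, roles, lists and the naming rule (every member, and up to 5 genes of each other list with the largest differences) were chosen with earlier results of these data known, and the gene pairs and the further list genes named were chosen after their values were seen. A gene was counted at 1.5-fold. Marker genes at background were named after their values were seen. Gene names are those of the files, and 49 of 50 members matched a RefSeq symbol on GRCm38.p6. Promoters and RefSeq gene types come from that build, probe positions from mm9. The scripts were tested on simulated data. The number of arrays limits the precision. Alternatives were median and spike-in scaling, quantile normalization, cyclic loess, normexp with an offset of 50, the values deposited separately, no filter on dim probes, the brightest probe of a gene, a 2-fold size, and a size over 2 errors.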

Additional observations from a re-analysis of the deposited data

How the results depend on the processing

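The count of 6 higher members was 4 to 9 over the other scalings, background correction, filter and probe choices, and 3 at 2-fold. The count of 8 lower members was 3 with quantile normalization, 3 with cyclic loess, 2 with spike-in scaling, 14 with no filter on dim probes and 2 at 2-fold. The members' median of -0.15 was 0.12 with spike-in scaling, where that of all genes was 0.18, and its sign was negative under the other 7 alternatives. Of 272 member values recomputed under an alternative 220 moved by less than the scanner error, 52 by more, and 0 past 1.5-fold in the main setting changed sign. Of the 34 measured members 24 kept their sign under all 8 alternatives. With no filter 14 members count as lower because 16 more genes at or near background enter. The cause of the other shifts was not tested. No paired analysis was possible because each condition has 1 array, and no replicate could be left out. Genes with a relative signal near 0.003 are at the limit of what these arrays separate from background.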

Other observations

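Some pairs of antigen-presentation genes were further apart than their scanner error, and these gaps do not depend on a constant scaling of the arrays. The pairs were chosen after their values were seen. Psmb9 and Tap1 start 226 bases apart in opposite directions, and Psmb9 was higher relative to Tap1 by 1.06 ± 0.29, or 2.08-fold. Tap2 was higher relative to Tap1, its partner subunit gene, by 0.68 ± 0.29, or 1.61-fold. Psme1 was higher relative to Psme3, the gene of another activator of the same protease core, by 1.67 ± 0.29, or 3.18-fold. Tapbp was higher relative to Tapbpl, the gene of the tapasin-related editor TAPBPR, by 1.18 ± 0.29, or 2.27-fold. Psmb8 was higher relative to H2-D1 by 1.73 ± 0.29, or 3.31-fold. H2-T10 was higher relative to H2-T23 by 0.84 ± 0.29. H2-D1 was lower relative to its light chain gene B2m, with a gap of -0.42 ± 0.29, and relative to H2-K1, with a gap of -0.47 ± 0.29. Both gaps were smaller than 2 errors. The gap to H2-K1 rests on the mean of 3 probes, whose differences were 0.02, -0.31 and -0.54.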
